A study of Mus musculus with 6 samples.

Results

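Cyclins, cyclin-dependent kinases (CDKs), their inhibitors and the genes that act directly on or below them were read out in diseased mouse bone marrow carrying wild-type or altered HoxA9. The set was chosen by name and holds 49 genes. Of these, 47 were measured by a probe set that the array annotation assigns to exactly 1 gene, out of 19938 genes measured in this way. For each gene the probe set with the highest mean over the 6 arrays was used. Ccnb1 (cyclin B1) and Cdkn1a (p21) had no such probe set and were not analysed here.

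Lethally irradiated CD45.1+ mice had received CD45.2+ donor cells of the LSK fraction, which contains haematopoietic stem and progenitor cells. All donor cells had been transduced with Meis1, together with HoxA9wt-GFP in 1 group (HoxA9wt/Meis1) and HoxA9AA-GFP in the other (HoxA9AA/Meis1). Bone marrow cells were taken at disease onset from 3 mice of each group, and each of the 6 Affymetrix arrays is 1 animal. The labels give no age, no sort for donor cells and no marrow without introduced HoxA9, so residual recipient cells can be part of each sample and both groups carry Meis1.

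Passage through the cell cycle is driven by CDKs, which act only when bound to a cyclin. D-type cyclins with Cdk4 or Cdk6 start the phosphorylation of the retinoblastoma (pocket) proteins in G1, which frees E2F factors to switch on genes for DNA replication. Cyclin E and cyclin A with Cdk2 then carry cells into and through S phase, and cyclin A and B with Cdk1 into mitosis. Inhibitors of the INK4 family bind Cdk4 and Cdk6, those of the CIP/KIP family bind cyclin-CDK complexes more widely, and a separate branch of cyclins and CDKs acts on RNA polymerase II. In marrow, dividing progenitors carry most of this machinery and mature neutrophils have left the cycle.

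Expression is given as log2 values, so that 1 unit is a doubling. Array medians were 6.73 to 6.85, and 1027 olfactory receptor genes, used as a stand-in for background, had medians of 4.80 to 4.88. Primary granule and precursor markers, which define the granulocyte precursors of marrow, were far above background on every array, with a mean level of 10.09 to 11.47 over 9 genes. The number of arrays, 3 per group, limits the precision of every value. In marrow of mixed cell types, fewer cells of a type and less RNA per cell cannot be told apart.

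No cell cycle gene passed the test between the groups, and the median difference over the set was close to that over all genes. With limma, 0 of 47 genes had a Benjamini-Hochberg adjusted p under 0.05 (the smallest was 0.731), as for 0% of all genes. Since no gene at all passed, this does not show equal levels. At an unadjusted p under 0.05 stood 5 of 47, with 4 higher and 1 lower in HoxA9AA/Meis1, against 6.74% of all genes (4.15% higher and 2.59% lower). The 2 groups did not overlap for 7 of 47 genes, 5 higher and 2 lower, against 11.4% of all genes (6.60% higher and 4.80% lower). The median difference, HoxA9AA/Meis1 minus HoxA9wt/Meis1, was 0.0067 over the 47 genes and 0.01 over all genes. By role, it ran from −0.15 for the G1 cyclins and kinases to 0.17 for the G1/S genes. Of the 47 genes 27 had a higher mean in HoxA9AA/Meis1, but 21 did so after median centring of the arrays and 19 after quantile normalization, so the set had no settled direction.

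The count at an unadjusted p under 0.05 depended on single mice. It was 10 without HoxA9AA replicate 2, 3 without HoxA9AA replicate 3 and 2 without HoxA9AA replicate 1. Without HoxA9wt replicates 1, 2 and 3 it was 1, 4 and 2. The share of all genes at this threshold was not counted with an array left out. These shifts can therefore not be read as particular to the cell cycle genes. HoxA9AA replicate 2 lay close to the HoxA9wt mice in these genes. In that mouse 1 of the 47 genes, Cdkn1c, lay more than 0.5 from its HoxA9wt mean, against 9 genes in HoxA9AA replicate 1 (1 above, 8 below) and 12 in replicate 3 (8 above, 4 below). Over all genes the share at this distance was 15.8% in replicate 1, 2.07% in replicate 2 and 14.5% in replicate 3, and over the 47 genes it was 19.1%, 2.13% and 25.5%.

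**Figure D1:**
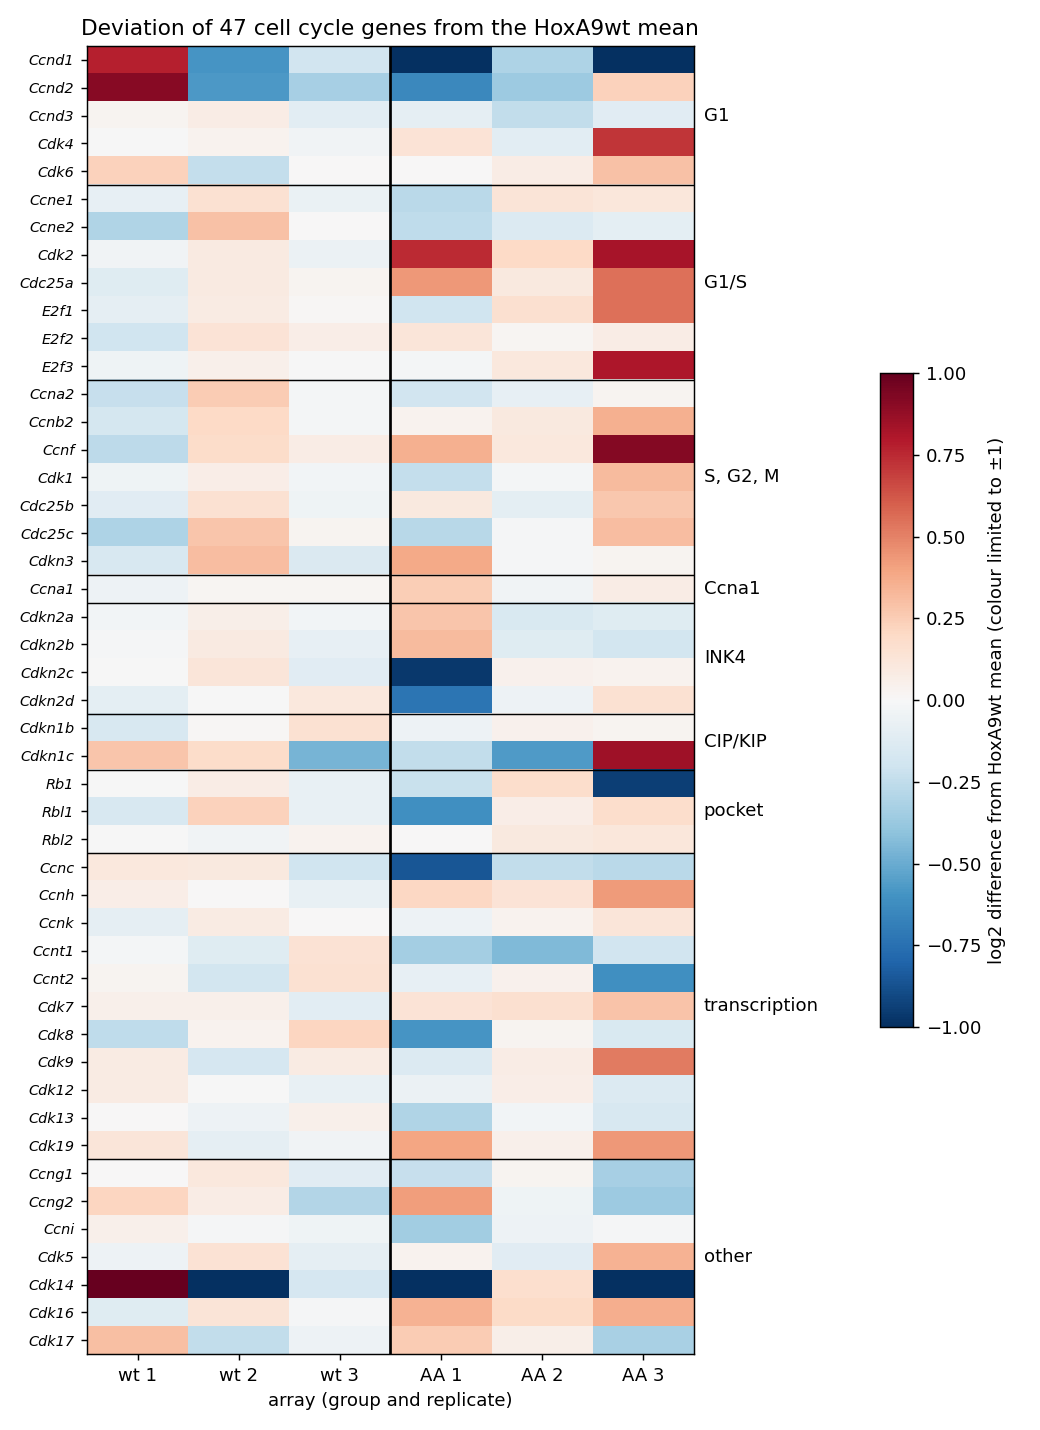
Each cell of the map is the log2 value of 1 gene (row, ordered by role) on 1 array (column) minus the mean of the 3 HoxA9wt arrays, with blue below and red above, the colour limited to 1 in either direction. The column of HoxA9AA replicate 2 is pale, with 1 gene more than 0.5 away, while HoxA9AA replicate 1 has 8 genes more than 0.5 below and replicate 3 has 8 more than 0.5 above.

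**Figure D2:**
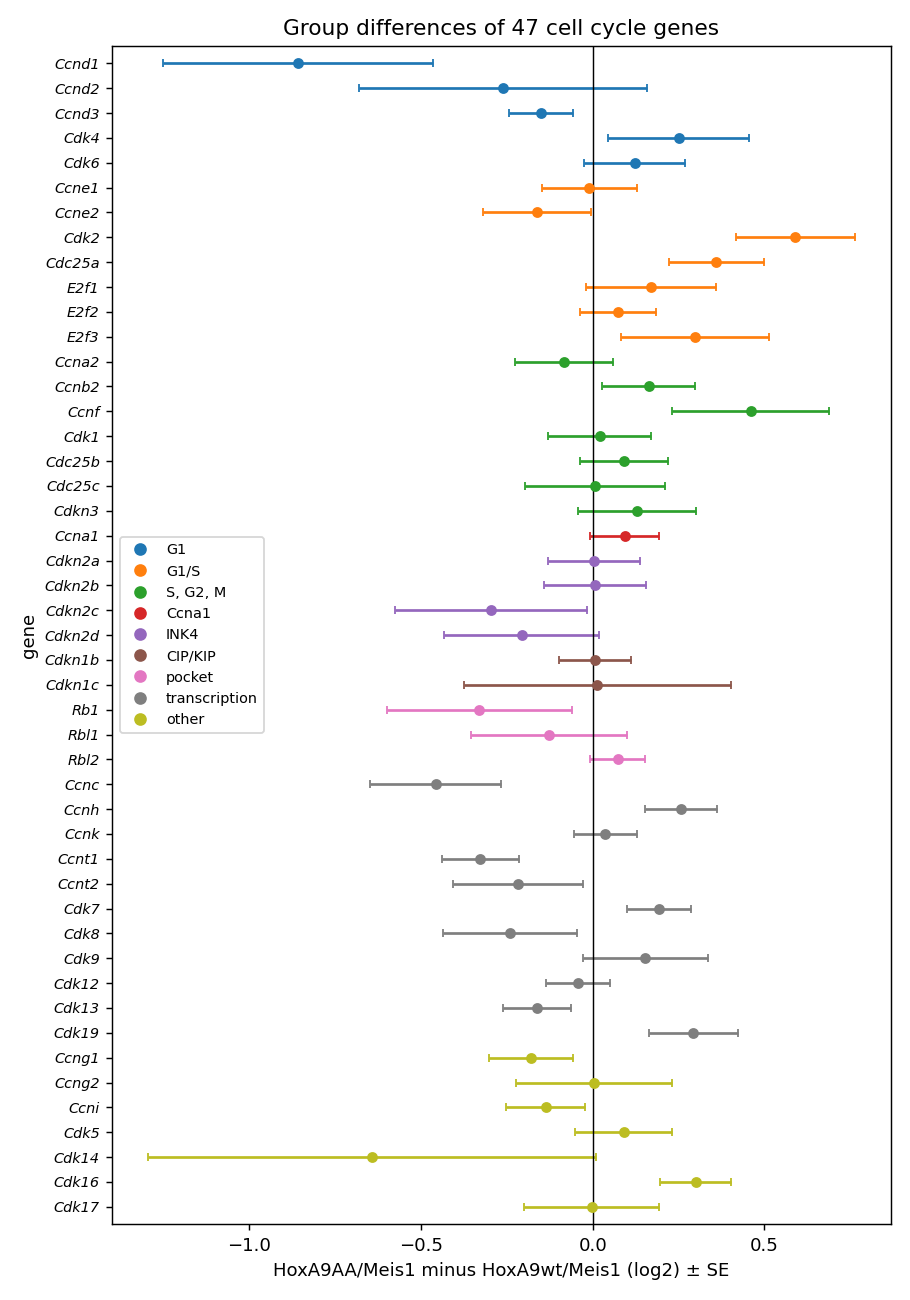
Points are the difference between group means on the log2 scale (horizontal axis, HoxA9AA/Meis1 minus HoxA9wt/Meis1, n = 3 per group) for each of the 47 genes (vertical axis), with bars for the standard error from limma and colours for the role. Differences run from −0.86 for Ccnd1 to 0.59 for Cdk2, and 39 of the 47 genes differ by less than 0.3.

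The D-type cyclins, which couple growth signals to the start of the cycle, had overlapping groups, with a wide spread between mice of a group for Ccnd1 and Ccnd2. Ccnd1 (cyclin D1) measured 8.93, 7.56 and 7.96 in HoxA9wt replicates 1, 2 and 3 and 7.08, 7.84 and 6.96 in the HoxA9AA mice. HoxA9AA replicates 1 and 3 were the lowest of the 6, but replicate 2 lay above HoxA9wt replicate 2, so the groups overlapped. The difference of −0.86 ± 0.39 (SE; limma, adjusted p = 0.731) was −0.47 without HoxA9wt replicate 1 and −1.15 without HoxA9wt replicate 2. Ccnd2 (cyclin D2) measured 9.30, 7.82 and 8.06 in the HoxA9wt mice and 7.75, 8.03 and 8.62 in the HoxA9AA mice. Here too HoxA9wt replicate 1 was the highest, and the difference of −0.26 ± 0.42 (adjusted p = 0.946) turned to 0.19 without it. Ccnd3 (cyclin D3) was steady, at 7.99 to 8.31 on all arrays.

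The kinases that D-type cyclins switch on were high in every mouse. Cdk6, the G1 kinase prominent in haematopoietic progenitors, measured 11.82 ± 0.24 (SD, n = 3) in the HoxA9wt mice and 11.94 ± 0.15 in the HoxA9AA mice. Pairs of means with SD are given in this order from here on. Its sister kinase gene Cdk4 measured 10.53 to 10.60 in the HoxA9wt mice and 10.70, 10.46 and 11.28 in the HoxA9AA mice. HoxA9AA replicate 3 stood alone at the top, 0.72 above the HoxA9wt mean.

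Among the genes of the G1/S transition, the kinase Cdk2 and its activating phosphatase Cdc25a lay apart between the groups without passing the test. Cdk2 measured 8.22, 8.35 and 8.20 in the HoxA9wt mice and 9.0, 8.46 and 9.08 in the HoxA9AA mice. All 3 HoxA9AA mice were above the HoxA9wt mice, replicates 1 and 3 by a wide margin and replicate 2 by less than the range of the HoxA9wt group. The difference was 0.59 ± 0.17, or 1.51-fold (limma, adjusted p = 0.731), the largest upward one of the 47 genes, and it was 0.78 (adjusted p = 0.0631) without HoxA9AA replicate 2. Over the alternatives tried, its adjusted p ran from 0.0631 to 0.998. Cdc25a, which removes inhibitory phosphates from Cdk2, measured 8.08, 8.29 and 8.23 against 8.63, 8.30 and 8.75. The groups were separated by a single step of 0.01 between HoxA9wt replicate 2 and HoxA9AA replicate 2, and the difference was 0.36 ± 0.14 (adjusted p = 0.731).

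The cyclins that bind Cdk2 at this point had close group means. Ccne1 (cyclin E1) measured 8.63 ± 0.13 and 8.62 ± 0.23, and Ccne2 (cyclin E2) 10.02 ± 0.30 and 9.85 ± 0.08. Of the E2F factors that activate S phase genes, E2f3 measured 8.40 to 8.49 in the HoxA9wt mice and 8.42, 8.55 and 9.25 in the HoxA9AA mice, so that HoxA9AA replicate 3 was the highest on this probe set. Its dimmer probe set measured 7.09 in that mouse, within the 6.85 to 7.15 of the HoxA9wt mice, and differed between groups by −0.29 against 0.30. E2f1 showed the same mouse highest, at 7.81 against 7.06 to 7.42 on the other 5 arrays. E2f2 measured 7.86 ± 0.17 and 7.93 ± 0.05.

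The sequences before the start sites of Cdk2 and Cdc25a are shown because these genes head the G1/S group and each holds a match to the E2F motif. They come from the RefSeq promoter table for GRCm38.p6, which holds 38 of the 49 genes, and cover the 250 bases before the start, 5′ to 3′ in the direction of the gene. Capitals mark matches on either strand to the E2F motif (TTTCCCGC, TTTGGCGC, TTTCGCGC or TTTGCCGC), the CCAAT box (CCAAT) and the cell cycle genes homology region, CHR (TTTGAA).
Cdk2 promoter, chr10:128705052-128705301, minus strand: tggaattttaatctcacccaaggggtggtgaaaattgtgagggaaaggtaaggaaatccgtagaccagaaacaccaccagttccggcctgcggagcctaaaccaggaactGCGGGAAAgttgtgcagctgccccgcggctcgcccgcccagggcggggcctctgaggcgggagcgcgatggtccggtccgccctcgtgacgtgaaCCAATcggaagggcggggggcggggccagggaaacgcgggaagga
Cdc25a promoter, chr9:109875329-109875578, plus strand: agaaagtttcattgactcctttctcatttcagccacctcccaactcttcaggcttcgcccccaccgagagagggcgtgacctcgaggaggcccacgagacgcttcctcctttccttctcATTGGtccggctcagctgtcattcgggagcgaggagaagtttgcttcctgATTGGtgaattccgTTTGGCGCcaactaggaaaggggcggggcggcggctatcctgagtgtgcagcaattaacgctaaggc
An E2F match starts 140 bases before the start of Cdk2, on the opposite strand, and 67 bases before that of Cdc25a. Counted by gene, such a match was present in 3 of the 6 G1/S genes in the table (Cdc25a, Cdk2 and E2f3), which have 8 promoters there. Counted by promoter, a match was present in 1.86% of all 32851 promoters of the same length, so the units differ. A match describes letters in this window and is not a measured binding site.

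**Figure D3:**
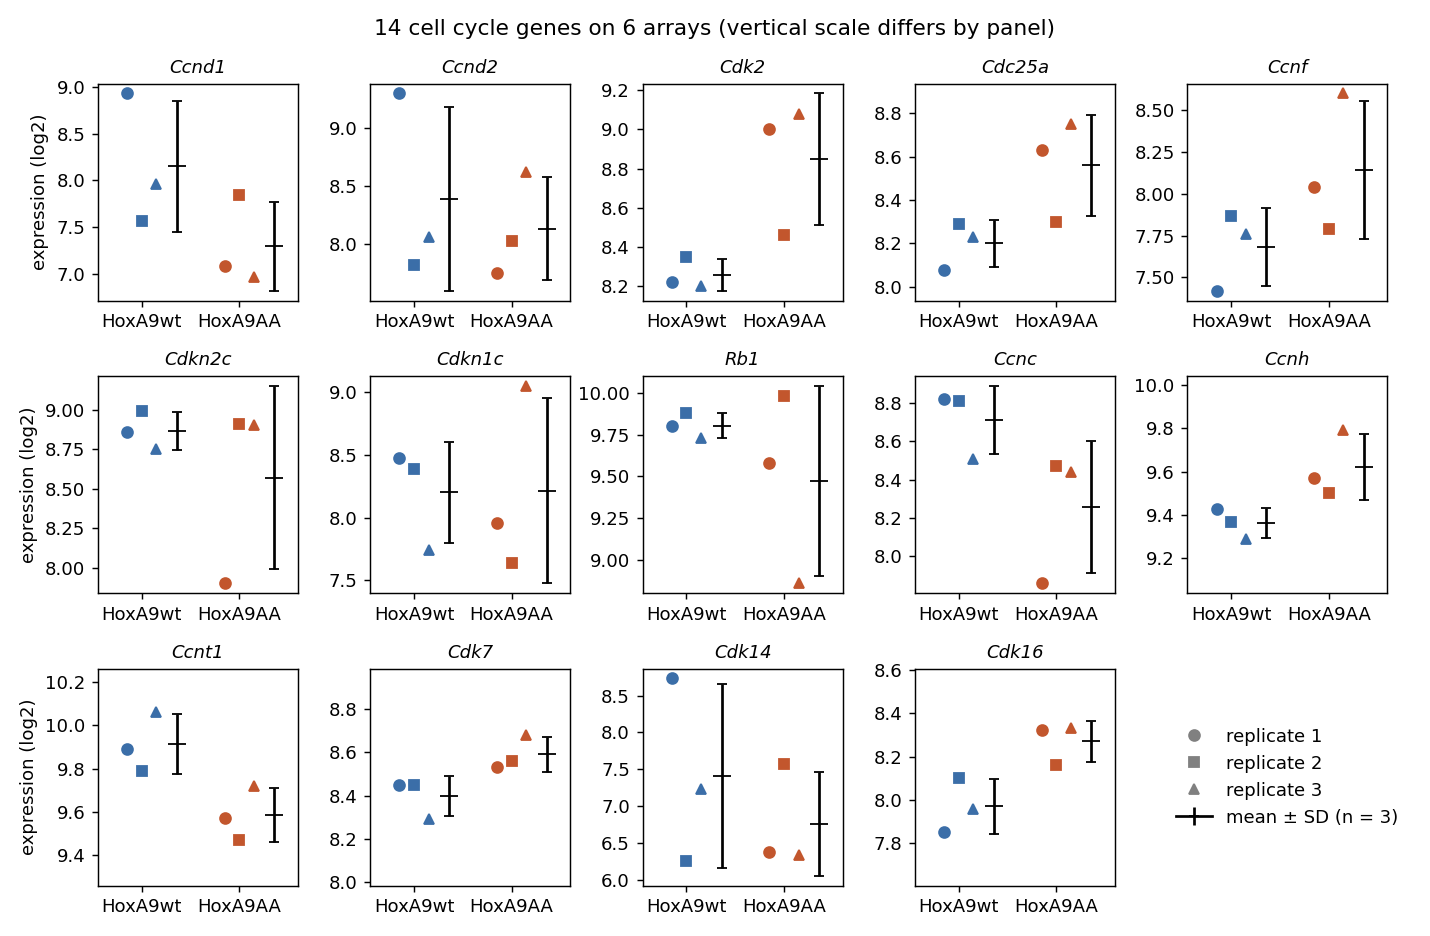
Expression values (log2, vertical axis, scale differing by panel) of 14 genes on the 6 arrays; symbols are single mice, marked by replicate, and bars the group mean ± SD (n = 3). Cdk2, Cdc25a, Ccnh, Cdk7 and Cdk16 have all HoxA9AA mice above the HoxA9wt mice, Ccnc and Ccnt1 all below, and the other panels overlap.

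Most genes of S phase, G2 and mitosis had close group means. Of the 7 measured, 0 had an unadjusted p under 0.05 in limma, against 6.74% of all genes, a share at which 0 of 7 says little. The mean was higher in HoxA9AA/Meis1 for 6 of the 7, and the median difference was 0.09, against 0.01 over all genes. Ccna2 (cyclin A2) measured 10.76 ± 0.25 and 10.68 ± 0.11, Ccnb2 (cyclin B2) 10.92 ± 0.19 and 11.09 ± 0.17, and Cdk1, the mitotic kinase, 8.80 ± 0.06 and 8.82 ± 0.28. The phosphatases that activate Cdk1 were as close, with Cdc25b at 7.40 ± 0.14 and 7.49 ± 0.19 and Cdc25c at 8.34 ± 0.30 and 8.35 ± 0.30. Cdkn3, a phosphatase that acts on CDKs, measured 8.80 ± 0.27 and 8.93 ± 0.22.

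Ccnf (cyclin F), which serves a ubiquitin ligase and binds no CDK, had the widest range of this group. It measured 7.42, 7.87 and 7.76 in the HoxA9wt mice and 8.04, 7.79 and 8.60 in the HoxA9AA mice. HoxA9AA replicate 3 was highest and replicate 2 lay within the HoxA9wt values, for a difference of 0.46 ± 0.23 (limma, adjusted p = 0.745). Within the HoxA9wt group, replicate 2 was the highest for all 7 genes and replicate 1 the lowest for all 7. Erythroid markers were also highest in HoxA9wt replicate 2, where the median over 12 genes lay 0.42 above the HoxA9wt mean, against −0.30 and −0.20 in replicates 1 and 3. Their mean level was 7.78 in that mouse and 6.47 to 6.81 on the other 5 arrays. Within the HoxA9wt group, replicate 2 also had the highest median deviation of late neutrophil (1.07), megakaryocyte (0.13) and primary granule (0.12) markers. It had the lowest for monocyte (−0.14), stem and progenitor (−0.10), T and NK cell (−0.08) and stromal (−0.02) markers. For B cell markers it lay at −0.01, as replicate 1 did. The part of any of these markers in the order of the cell cycle genes was not tested.

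Promoters of Ccnb2 and Cdk1 are given as examples of 2 genes with close group means whose starts are preceded by both CCAAT and CHR letters. The marks are the same as for Cdk2 and Cdc25a.
Ccnb2 promoter, chr9:70421555-70421804, minus strand: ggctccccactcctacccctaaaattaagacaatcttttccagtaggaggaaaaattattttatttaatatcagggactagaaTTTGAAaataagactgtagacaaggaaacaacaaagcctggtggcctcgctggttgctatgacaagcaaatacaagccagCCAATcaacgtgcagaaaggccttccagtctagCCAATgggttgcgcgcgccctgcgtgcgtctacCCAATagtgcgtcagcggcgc
Cdk1 promoter, chr10:69352913-69353162, minus strand: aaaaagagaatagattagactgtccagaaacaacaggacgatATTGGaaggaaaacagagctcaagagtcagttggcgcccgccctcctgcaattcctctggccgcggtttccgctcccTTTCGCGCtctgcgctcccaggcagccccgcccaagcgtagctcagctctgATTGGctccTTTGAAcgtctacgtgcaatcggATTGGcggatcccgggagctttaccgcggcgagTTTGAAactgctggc
Ccnb2 has CCAAT matches starting 87, 54 and 21 bases before its start and a CHR match farther off, at 167 bases. Cdk1 has CCAAT matches at 208, 80 and 48 bases, CHR matches at 71 and 15 bases and an E2F match at 131 bases before its start. Of the 6 genes of S phase, G2 and mitosis in the table, 6 held a CCAAT match and 4 a CHR match (Ccnb2, Ccnf, Cdk1 and Cdkn3). Over all promoters of this length the shares were 33.9% and 16.0%. The table holds no Ccna2 and no Cdc25c, and Ccnb1, which it does hold, has CCAAT matches at 99 and 67 bases and no CHR match in this window.

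Ccna1 (cyclin A1), a germ line cyclin that is also reported in myeloid leukaemia, was near background. It lay between 5.57 and 5.86 on the 6 arrays, less than 1 above the olfactory receptor median of each, and was the 1 gene of the 47 for which this held.

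Of the INK4 inhibitors, Cdkn2c (p18) and Cdkn2d (p19) were low in HoxA9AA replicate 1 alone. Cdkn2c measured 8.86, 8.99 and 8.75 in the HoxA9wt mice and 7.90, 8.91 and 8.90 in the HoxA9AA mice. That 1 mouse sets the difference of −0.30 ± 0.28 (limma, adjusted p = 0.888), which was 0.04 without it. Cdkn2d measured 7.30 in the same mouse and 7.93 to 8.18 on the other 5 arrays. The neighbouring genes Cdkn2a (p16 and Arf) and Cdkn2b (p15) were highest in that mouse. Cdkn2a was 7.08 against 6.65 to 6.86 elsewhere, and Cdkn2b 7.51 against 7.01 to 7.28.

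The CIP/KIP inhibitors had close group means on the probe sets used, but a second probe set of Cdkn1b did not. Cdkn1c (p57), known for holding stem cells in quiescence, measured 8.48, 8.39 and 7.74 in the HoxA9wt mice and 7.96, 7.64 and 9.05 in the HoxA9AA mice. HoxA9AA replicate 3 was the highest and replicate 2 the lowest of all 6, so the difference of 0.01 ± 0.39 (limma, adjusted p = 0.994) had no settled sign. It was −0.40 without HoxA9AA replicate 3 and 0.30 without HoxA9AA replicate 2. Cdkn1b (p27) measured 8.26 ± 0.16 and 8.27 ± 0.05 on the probe set with the higher mean. Its other probe set measured 6.84 in HoxA9AA replicate 1 and 8.37 to 8.61 on the other 5 arrays, for a difference of −0.55 between group means. It was the brighter one on 5 of the 6 arrays and ranked second by its mean through that 1 mouse.

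The pocket proteins, which hold E2F factors in check, showed 1 low mouse each for Rb1 and Rbl1. Rb1 measured 9.80, 9.88 and 9.73 in the HoxA9wt mice and 9.58, 9.98 and 8.86 in the HoxA9AA mice. HoxA9AA replicate 3 lay 0.94 below the HoxA9wt mean while replicate 2 was the highest of all, and the difference was −0.33 ± 0.27 (limma, adjusted p = 0.859). Without HoxA9AA replicate 3 it was −0.02. The 50 genes around Rb1 on chromosome 14 had a median deviation of 0.03 in that mouse. Rbl1 (p107) was lowest in HoxA9AA replicate 1, at 8.50 against 8.96 to 9.35 on the other 5 arrays, and Rbl2 (p130) lay between 9.12 and 9.27 on all 6.

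Several of these genes lie on chromosome 2, where HoxA9AA replicate 1 has a stretch of low values. Among genes averaging at least 8 in the HoxA9wt mice, the median deviation from that mean in replicate 1 was −0.14 over the genome. Over the 50 such genes around Cdc25b it was −0.90, around E2f1 −0.69 and around Rbl1 −0.53. Rbl1 itself deviated by −0.62, E2f1 by −0.20 and Cdc25b by 0.10, so these 3 genes differed from each other within the stretch. In HoxA9AA replicates 2 and 3 the neighbours of these 3 genes had medians between −0.05 and 0.21. Around Cdk9, which lies on chromosome 2 too, the median in replicate 1 was −0.01. The low genes Ccnd1, Cdk14, Cdkn2c and Ccnc had neighbour medians of −0.03, −0.17, −0.18 and −0.35 in the same mouse. The part of such neighbourhoods in the values of single genes was not tested.

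**Figure D4:**
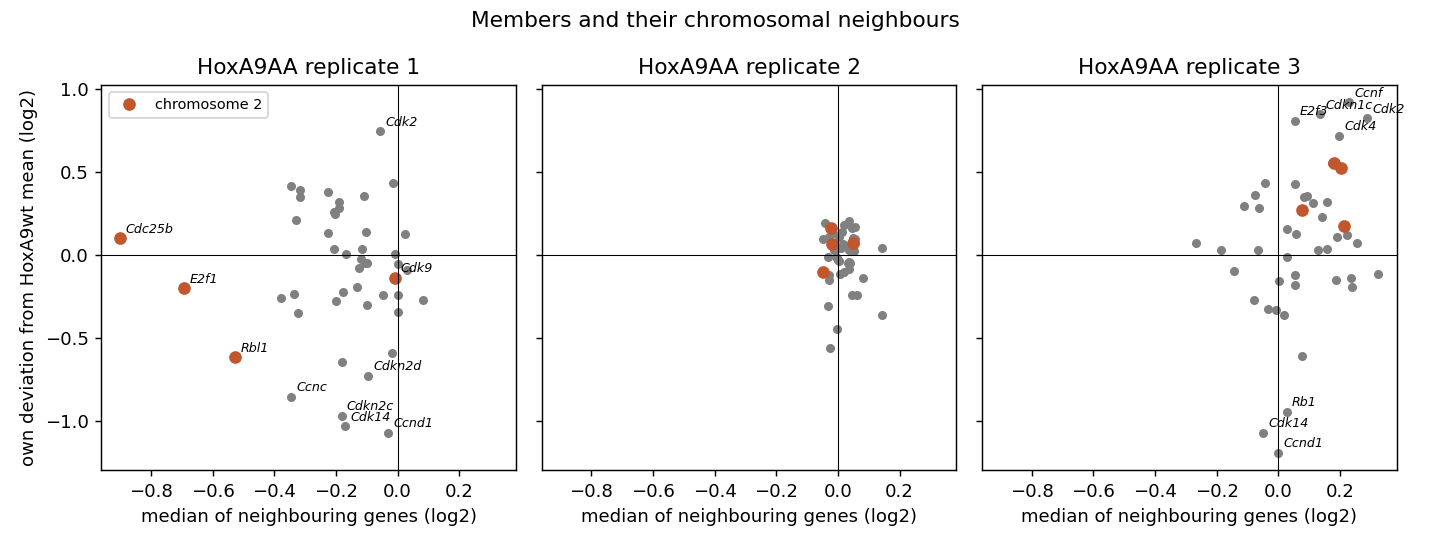
Each point is 1 of the 47 genes in 1 HoxA9AA mouse (panels), with its own log2 deviation from the HoxA9wt mean (vertical axis) against the median deviation of up to 25 genes on each side of it on the chromosome that average at least 8 in the HoxA9wt mice (horizontal axis); genes of chromosome 2 are coloured. In replicate 1 Cdc25b, E2f1 and Rbl1 stand apart on the horizontal axis, at −0.90, −0.69 and −0.53, with own values of 0.10, −0.20 and −0.62.

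In the branch that acts on transcription, the kinase Cdk7 and its partner cyclin H lay higher and cyclins T1 and C lower in HoxA9AA/Meis1 marrow, each by a small step that did not pass. Ccnh (cyclin H), which with Cdk7 activates other CDKs and phosphorylates RNA polymerase II, measured 9.43, 9.37 and 9.29 against 9.57, 9.50 and 9.79. Cdk7 measured 8.45, 8.45 and 8.29 against 8.53, 8.56 and 8.68. All HoxA9AA mice lay above all HoxA9wt mice in both genes, by differences of 0.26 ± 0.11 (limma, adjusted p = 0.731) and 0.19 ± 0.09 (0.735). A dimmer probe set of Cdk7 differed by −0.12, and the mean of both probe sets by 0.04. Mnat1, the assembly factor of the same complex, measured 7.59 ± 0.24 and 7.70 ± 0.31, with overlapping groups.

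Ccnt1 (cyclin T1), the partner of Cdk9 in releasing paused polymerase, measured 9.89, 9.79 and 10.06 against 9.57, 9.47 and 9.72. Here the 3 HoxA9AA mice were close together and below the HoxA9wt mice, including replicate 2, which was the lowest. The difference was −0.33 ± 0.11 (limma, adjusted p = 0.731). Its kinase Cdk9 measured 8.03 ± 0.14 and 8.18 ± 0.34, and the related Ccnt2 9.13 ± 0.17 and 8.91 ± 0.35. Ccnc (cyclin C), of the Mediator kinase module, measured 8.82, 8.81 and 8.51 against 7.86, 8.47 and 8.44. HoxA9AA replicate 1 was far lower than the rest, and the other 2 HoxA9AA mice lay just below HoxA9wt replicate 3. The difference was −0.46 ± 0.19 (adjusted p = 0.731), and −0.26 without HoxA9AA replicate 1.

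The Mediator kinases that pair with cyclin C had overlapping groups. Cdk8 measured 10.35 ± 0.24 and 10.11 ± 0.32, and Cdk19 10.59 ± 0.11 and 10.88 ± 0.21. Ccnk (cyclin K) and its kinases Cdk12 and Cdk13, which phosphorylate elongating polymerase, were steady, with spans over the 6 arrays of 0.21, 0.22 and 0.35.

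Among the remaining cyclins and kinases, Cdk16 lay higher in every HoxA9AA mouse and Cdk14 varied most. Cdk16, a kinase of the PCTAIRE family, measured 7.85, 8.10 and 7.96 against 8.32, 8.16 and 8.33, a difference of 0.30 ± 0.10 (limma, adjusted p = 0.731) that stayed between 0.24 and 0.37 when any 1 array was left out. Cdk14, which with cyclin Y acts in Wnt signalling, measured 8.73, 6.26 and 7.24 in the HoxA9wt mice and 6.38, 7.58 and 6.34 in the HoxA9AA mice. Its span of 2.47 was the widest of the 47 genes, and the HoxA9wt mice alone covered all of it. HoxA9wt replicate 1 was again the highest, as for Ccnd1 and Ccnd2, and the difference of −0.64 ± 0.65 (adjusted p = 0.899) was 0.02 without it. Ccng1 (cyclin G1), a p53 target, measured 11.63 ± 0.11 and 11.45 ± 0.19, and Ccng2, a FoxO target linked to cell cycle arrest, 8.29 ± 0.26 and 8.30 ± 0.39. Ccni, Cdk5 and Cdk17 differed between group means by −0.14, 0.09 and −0.003.

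Among other genes of the same pathways, too, none passed the test, and the median over a list varied between mice. Of 34 S phase and E2F target genes 0 passed the adjustment over all genes (limma), and 1 had an unadjusted p under 0.05, against 6.74% of all genes. The mean was higher in HoxA9AA/Meis1 for 29 of the 34 (85.3%, against 52.8% of all genes), and the median difference was 0.17, against 0.01 over all genes. Without HoxA9AA replicate 3 the mean was higher for 19 of 34 and the median difference was 0.0058. It was 0.10 without HoxA9wt replicate 1 and 0.30 without HoxA9AA replicate 1. The list lay at −0.10 and 0.12 in HoxA9AA replicates 1 and 2 and at 0.50 in replicate 3. Of the 47 cell cycle genes, 21 were highest in HoxA9AA replicate 3. E2f1 and Cdk4 were among them, so a high value in that mouse was not particular to these genes. Mcm2, a subunit of the replicative helicase, measured 8.73 ± 0.12 and 9.36 ± 0.46, and Cdt1, which loads that helicase, 7.60 ± 0.16 and 7.91 ± 0.20. Dscc1 and Pole differed by 0.41 and 0.31, and Gins1, a further helicase factor chosen after its value was seen, by −0.67. Gins1 measured 6.89 in HoxA9AA replicate 1 and 8.37 to 8.86 on the other 5 arrays.

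Of 37 G2 and mitosis genes 0 passed and 1 had an unadjusted p under 0.05, against 6.74% of all genes. The mean was higher for 19 and lower for 18, with a median difference of 0.0067, and the direction had no stability. The mean was higher for 10 genes without HoxA9wt replicate 1, 11 without HoxA9AA replicate 3, 25 without HoxA9AA replicate 1 and 28 without HoxA9wt replicate 2, and median centring gave 17. Incenp, of the chromosomal passenger complex, measured 8.87 ± 0.18 and 9.33 ± 0.32, and Cdc20, which activates the anaphase-promoting complex, 8.77 ± 0.26 and 9.16 ± 0.33. The condensin gene Ncapg differed by −0.37 and the centromeric histone gene Cenpa by 0.28. Bub1, a spindle checkpoint kinase chosen after its value was seen, differed by −0.66. The proliferation marker Mki67 measured 10.76 ± 0.43 and 10.85 ± 0.29.

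Of 44 further CDK regulators and partners 0 passed, and 6 had an unadjusted p under 0.05 (4 higher, 2 lower), against 6.74% of all genes (4.15% higher, 2.59% lower). The mean was higher for 32 and lower for 12, with a median difference of 0.14 (0.09 without HoxA9wt replicate 1). Cdk10 measured 7.08, 7.12 and 7.10 in the HoxA9wt mice and 7.45, 7.48 and 7.55 in the HoxA9AA mice. Both groups were tight and clearly apart, and the difference of 0.39 still had an adjusted p of 0.731 (limma). Ccnl1 (cyclin L1), which works in splicing, measured 10.08 ± 0.39 and 9.42 ± 0.20 with all HoxA9AA mice lower. Cdc14b, a phosphatase that opposes CDKs, measured 6.92 ± 0.31 and 5.99 ± 0.58. HoxA9AA replicate 2, at 6.66, lay within the HoxA9wt values, and replicates 1 and 3, at 5.59 and 5.73, were near background. Fbxo5, an inhibitor of the anaphase-promoting complex, measured 9.65 ± 0.30 and 10.14 ± 0.24, also with overlapping groups.

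Of 24 p53 response genes 0 passed, and 3 had an unadjusted p under 0.05, all lower in HoxA9AA/Meis1. Of all genes 6.74% had such a p in either direction and 2.59% were lower. The mean was higher for 10 and lower for 14, with a median difference of −0.07 that ran from −0.13 to −0.005 when 1 array was left out (without HoxA9wt replicate 2 and without HoxA9AA replicate 3). Xpc, chosen after its value was seen, differed by 0.53. The 3 genes were Zmat3 (−0.38), Phlda3 (−0.25) and Ei24 (−0.39), and Mdm2, the ubiquitin ligase for p53, differed by −0.29. Of 18 FoxO and quiescence genes 0 passed, and 4 had an unadjusted p under 0.05, all higher, against 6.74% of all genes in either direction and 4.15% higher. The mean was higher for 12 and lower for 6, among them Txnip (−0.29) and Bcl6 (−0.28), both chosen after their values were seen, with a median difference of 0.18 (0.07 without HoxA9AA replicate 1). Foxo3 itself measured 8.72 ± 0.07 and 9.07 ± 0.11, with all HoxA9AA mice above all HoxA9wt mice, and Pik3ip1, an inhibitor of PI3 kinase, 8.04 ± 0.12 and 8.61 ± 0.32. Mxd1 and Mxd4, antagonists of Myc, differed by 0.33 and 0.56, and for Mxd4 HoxA9AA replicate 2, at 8.17, lay next to the HoxA9wt mice at 8.04 to 8.15.

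Marker genes of marrow cell types were also at different levels in these mice. Stem and progenitor markers deviated from the HoxA9wt mean by a median of 0.73 and 0.75 in HoxA9AA replicates 1 and 3 and of −0.03 in replicate 2. The group mean was higher for 8 of 11, with mean levels of 7.57 to 7.97 in the HoxA9wt and 7.86 to 8.60 in the HoxA9AA mice. Flt3 was among the lower ones, at 6.92 in HoxA9AA replicate 1 and 9.87 or more on every other array. So was Meis1, which had also been introduced into all donor cells. Monocyte and macrophage markers stood at −1.18, −0.03 and −0.78 in HoxA9AA replicates 1, 2 and 3, with 10 of 10 lower in the group mean and a mean level of 10.27 to 10.70 in the HoxA9wt and 8.96 to 10.50 in the HoxA9AA mice. Late neutrophil markers had their lowest median deviation in HoxA9wt replicate 3, at −1.87. It was highest in HoxA9AA replicates 1 and 2, at 1.64 and 1.57, followed by HoxA9wt replicate 2 at 1.07. Of these markers, 10 of 12 had a higher group mean in HoxA9AA/Meis1, with mean levels of 7.47 to 10.14 in the HoxA9wt and 8.78 to 10.40 in the HoxA9AA mice. Mmp8 went the other way, by −3.54, the lowest difference of all genes. The part of these markers in the cell cycle values was not tested.

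**Figure D5:**
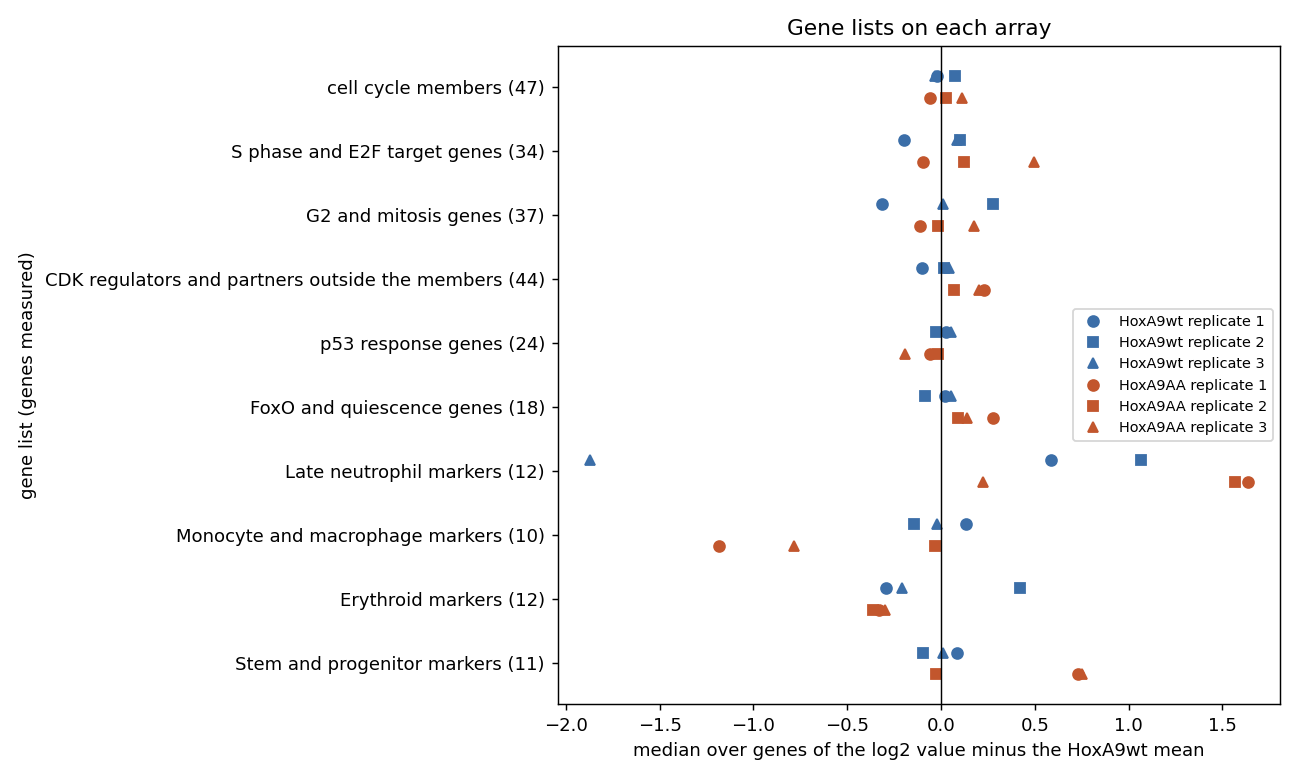
Points are the median over the measured genes of a list (vertical axis, number of genes in brackets) of the deviation from the HoxA9wt mean (log2, horizontal axis) on each array, with colours for the group and symbols for the replicate. The 47 cell cycle genes lie between −0.06 and 0.11 on all arrays, the S phase list reaches 0.50 in HoxA9AA replicate 3, and the late neutrophil list runs from −1.87 to 1.64.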

How the data were processed

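RNA of bone marrow cells was labelled and hybridised to 1-colour Affymetrix mouse gene arrays. The deposited values are log2 values made by the authors with the R package oligo and RMA, per the submitters' processing notes, with versions not given in the sources used here. RMA subtracts background, gives the arrays a common distribution and sums up probe sets, so a shift shared by a whole array is removed. The log2 scale follows from RMA and the range of the values.

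Of 35556 probe sets, 21789 had 1 gene symbol in the platform annotation, 1621 had several and 12146 were not listed. The brightest probe set per gene left 19938 genes. The test was limma 3.58.1 (R 4.3.3; lmFit, eBayes, two-sided, no block, Benjamini-Hochberg over all genes, threshold 0.05), checked on simulated data. Any pair of arrays shared 1.15% to 2.83% of its values. Labels call the animals biological replicates.

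The members and lists were chosen with earlier results of these data known. The 6 values are printed for genes whose groups did not overlap, with an unadjusted p under 0.05, a difference of 0.5 or more or a span of 1 or more, which gave 14 genes. Of each pathway list the 4 genes with the smallest p were named; Mki67, Mnat1 and genes so marked were chosen after their values were seen. Alternatives were a replicate block, each array left out in turn, no genes under the probe set median (6.81), probe sets averaged per gene, median centring, quantile normalization, eBayes with trend and robust, and array weights. Figures were drawn with matplotlib 3.10.9.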

Additional observations from a re-analysis of the deposited data

How the results depend on the processing

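No cell cycle gene passed the adjusted threshold under any of the 13 alternatives, and the median difference of the 47 genes stayed between −0.02 and 0.05 (without HoxA9AA replicate 3 and without HoxA9wt replicate 2). Over all genes, limma called between 0 and 48 genes when 1 array was left out (48 without HoxA9AA replicate 2, 1 without HoxA9wt replicate 3) and 0 otherwise. The count of cell cycle genes with an unadjusted p under 0.05, 5 in the main comparison, ran from 1 to 10 when 1 array was left out. It was 1 with eBayes with trend and robust, and 2 when genes under the probe set median were dropped. The share of all genes at this threshold was not counted for these alternatives, so the counts do not set the cell cycle genes apart. Deviations of same-numbered arrays of the groups had correlations of −0.21, −0.10 and −0.01 over genes, and those of other pairs −0.16 to 0.24. With 3 arrays per group these values cannot settle whether the numbers pair mice. With the replicate block the count of cell cycle genes at an unadjusted p under 0.05 was 2. The count of genes whose groups did not overlap, 7, can only stay or grow when an array is left out, and the 8 to 15 found then say nothing of stability. These alternatives for both counts were chosen after seeing the data. Of 34 genes followed, 4 turned in sign under some alternative. Ccnd2 gave 0.0052 with array weights and ran from −0.55 to 0.19 when 1 array was left out, Cdkn2c from −0.47 to 0.0383, Cdk14 from −1.22 to 0.0167 and Cdkn1c from −0.40 to 0.30. Cdkn1c also gave −0.005 after median centring and −0.0319 after quantile normalization, and −0.22 without HoxA9wt replicate 3. The cause was not tested. Ccna1 alone of the 47 genes lay less than 1 above the olfactory receptor median on every array, a mark that does not show the others to be expressed. Cdkn2a, at 6.80 in both group means, and the lowest Cdk14 value, 6.26, lay at or under the probe set median (6.81). Whether such genes were expressed was not tested.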

Other observations

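The 5 genes with more than 1 probe set had another group difference on the probe set that the comparison did not use. Cdkn1b gave −0.55 against 0.0067 on the one used. E2f3 gave −0.29 against 0.30 on the one used, Cdk7 −0.12 against 0.19, Ccni 0.07 against −0.14 and Cdk12 −0.31 against −0.04.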
